A study of Mus musculus with 32 samples.

Results

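Trophectoderm regulators and keratins were followed as 10 genes: the transcription factor genes Cdx2, Eomes, Gata2, Gata3, Elf5, Tfap2c, Hand1 and Tead4, and the keratin genes Krt8 and Krt18. They were picked by name, and all 10 had a row among the 24890 genes of the count and TPM tables. Poly(A) RNA of the wild-type mouse embryonic stem cell line E14 was sequenced in 2 arms. Cells of the ESC arm grew on gelatin in serum-based ESC medium with LIF and inhibitors of GSK3 (CHIR99021) and of MEK (PD0325901). Those of the NrESC arm grew in that medium with 10 µM T0901317, which activates liver X receptors. Each arm was sampled at passages 0, 2, 4, 6, 8, 10, 12 and 14 with 2 libraries each, giving 16 groups and 32 libraries of 1 cell line. Separate cultures are not named for paired libraries, and p-values therefore measure only the spread between these samples, which may be technical. The labels leave out how long the passage 0 cells of the NrESC arm had been exposed.

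The trophectoderm is the first epithelium of the mammalian embryo and gives rise to the placenta. In the mouse, TEAD4 with the Hippo effectors YAP1 and WWTR1 switches on Cdx2 in the outer cells, GATA3 and TFAP2C act beside it, and CDX2, EOMES and ELF5 later maintain trophoblast stem cells, while OCT4 and NANOG oppose CDX2 in the inner cells. KRT8 and KRT18 pair to form the keratin filaments of simple epithelia, the trophectoderm included, and their genes are neighbours in the genome.

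Promoter sequences of the keratin pair and of Cdx2 and Eomes are shown because each pair is compared across passages below. The table of RefSeq promoters, from 250 bases before to 50 bases after a transcription start, held 7 of the 10 genes (not Tfap2c, Hand1 or Tead4). It is on GRCm38.p6, whereas the submitters' processing notes name mm9, so its coordinates belong to GRCm38.p6 only. The 250 bases before the start are printed 5′ to 3′ on the strand of the gene, at chr15:102004343-102004592 (minus strand), chr15:102027966-102028215 (plus), chr5:147307250-147307499 (minus) and chr9:118477939-118478188 (plus). Capitals mark matches on either strand to 5 motifs. The TEAD site was taken as GGAATG and found in 14.7% of all 32851 promoters of 300 bases in the table. For the AP-1 site the letters were TGANTCA, present in 7.81% of them. The GC box, searched as GGGCGG, was in 35.7%. A GATA site was read as AGATAA and occurred in 11.2%. The half-site bound by many nuclear receptors was read as AGGTCA and occurred in 16.3%. No motif contains another.
Krt8: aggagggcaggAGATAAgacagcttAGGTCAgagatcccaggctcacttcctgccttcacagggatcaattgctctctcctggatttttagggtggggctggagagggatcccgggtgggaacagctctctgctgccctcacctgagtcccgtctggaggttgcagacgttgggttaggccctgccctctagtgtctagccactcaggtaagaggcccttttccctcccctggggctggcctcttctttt
Krt18: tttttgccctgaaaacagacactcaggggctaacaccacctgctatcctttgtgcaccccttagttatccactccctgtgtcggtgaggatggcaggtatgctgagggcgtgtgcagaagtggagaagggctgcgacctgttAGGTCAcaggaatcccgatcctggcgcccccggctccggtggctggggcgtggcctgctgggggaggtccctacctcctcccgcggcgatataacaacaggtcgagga
Cdx2: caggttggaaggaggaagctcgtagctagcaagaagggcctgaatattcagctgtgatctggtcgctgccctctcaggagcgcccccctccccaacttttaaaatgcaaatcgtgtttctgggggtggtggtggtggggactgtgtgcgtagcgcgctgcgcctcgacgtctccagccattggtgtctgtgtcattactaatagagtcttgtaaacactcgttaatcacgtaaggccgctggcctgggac
Eomes: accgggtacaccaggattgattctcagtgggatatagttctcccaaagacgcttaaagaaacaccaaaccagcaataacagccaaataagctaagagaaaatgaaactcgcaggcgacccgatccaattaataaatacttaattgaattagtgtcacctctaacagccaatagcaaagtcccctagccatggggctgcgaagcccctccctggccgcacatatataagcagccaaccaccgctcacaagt
Krt8 and Krt18 each held the nuclear receptor half-site once, starting 225 and 108 bases before the transcription start, and Krt8 held the GATA site 239 bases before it. Neither the Cdx2 nor the Eomes promoter held any of the 5 motifs. Of the others, Gata2 has a pair of listed starts with a GC box at both and a TEAD site at 1, Gata3 held 2 GC boxes, and 1 of the Elf5 starts held a TEAD site. A match is a description of the letters only. In GENCODE's annotation of GRCm38, Krt8 and Krt18 lie head to head with 0 protein-coding genes between them. The same annotation places the long noncoding RNA Gm36026 over Krt8 on the other strand, an antisense gene over Eomes and a pseudogene over Tead4, none with a row of its own. Over Gata3 it places 4930412O13Rik on the opposite strand and 9230102O04Rik on the same strand, both with rows. Whether counting used strand is not given in the sources used here, so reads of Gata3 and of these 2 genes may not be separated.

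The libraries held 24989651 to 50463483 expected counts, and TMM scaling factors, which correct for differences in RNA composition, lay between 0.979 and 1.03. Levels are per-million counts (CPM) after TMM scaling. Differences come from edgeR's quasi-likelihood test fitted to all 32 libraries and 15036 genes past a low-count filter (0.282 CPM in at least 2 libraries), and are log2 values of NrESC minus ESC. A gene was called when its p, Benjamini-Hochberg adjusted over the 15036 genes, was under 0.05. The NrESC libraries of passage 8 lay apart from the other 30 on the first 2 principal components. The labelled cell type was borne out by its markers: Pou5f1 was at 2007 to 2395 per-million transcript units (TPM, scaled by transcript length) and Nanog at 708.9 to 1443 TPM over the groups.

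Averaged over the 8 passages, Krt8, Tead4, Krt18 and Tfap2c were higher in NrESC, and Gata3, Cdx2, Gata2 and Eomes were lower, while Hand1 was not called and Elf5 was too low to test. Thus 4 of the 9 tested genes were called higher and 4 lower, close to the background, where 39.1% of all tested genes were called higher and 39.8% lower. The median difference of the 9 genes was 0.10 against -0.001 for all tested genes, and it was -0.17 without passage 8, the middle gene being Hand1 in both cases. Without passage 8 the 8 called genes were called in the same directions (37.6% of all genes higher and 37.4% lower), at 0.94 for Krt8, 0.34 for Tead4, 0.22 for Krt18, 0.11 for Tfap2c, -1.76 for Gata3, -1.40 for Cdx2, -1.13 for Gata2 and -0.32 for Eomes. Per transcript length, which allows genes to be compared, the mean ESC level ran from Krt8 (37.8 TPM), Tead4 (37.02), Tfap2c (26.5), Eomes (15.5), Krt18 (14.4) and Gata2 (6.25) down to Cdx2 (1.59), Gata3 (1.11), Hand1 (0.379) and Elf5 (0.0731). Krt8 and Tead4, Eomes and Krt18, and Cdx2 and Gata3 differed by less than the spread over passages. In NrESC, Krt8 stood first at 73.4 TPM, ahead of Tead4 at 44.9, and Cdx2 was at 0.654 and Gata3 at 0.285 TPM. These are bulk cultures, in which fewer cells of a type and less RNA per cell cannot be told apart.

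**Figure D1:**
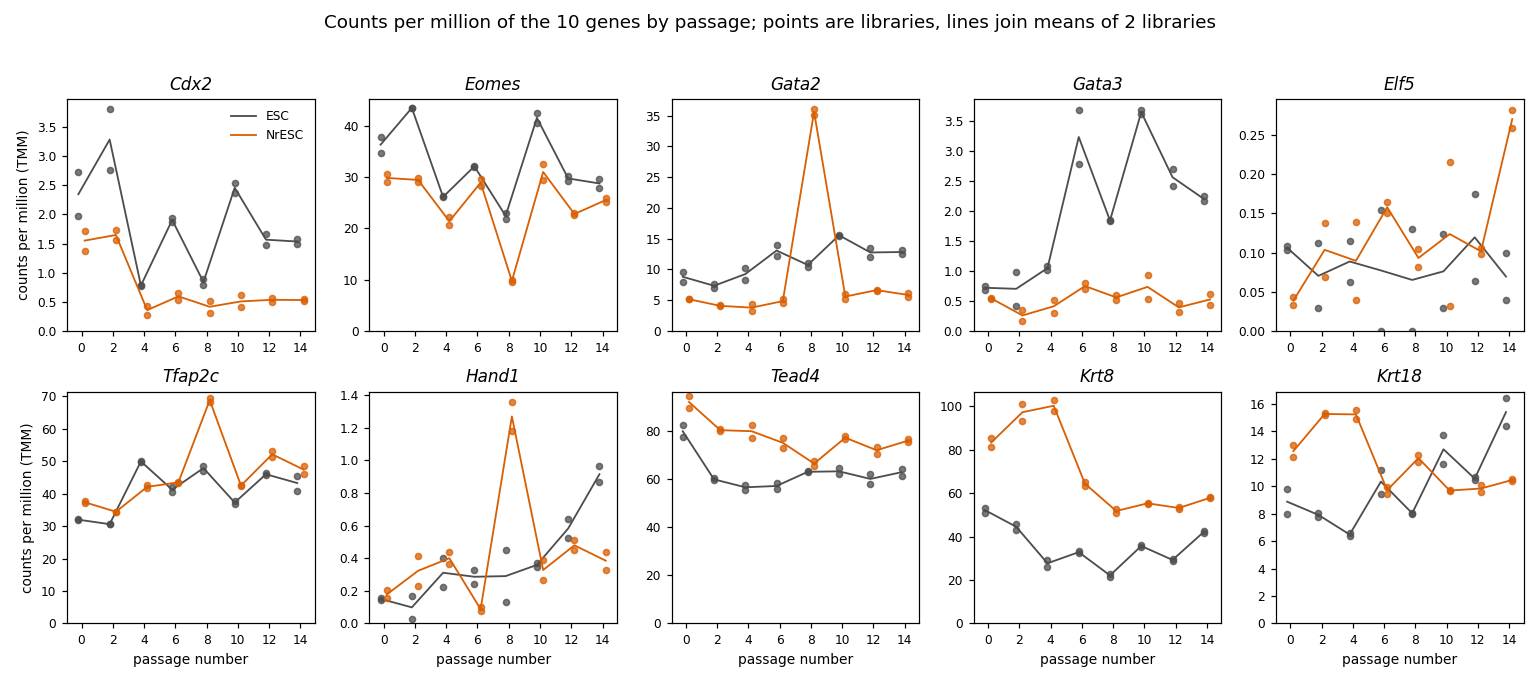
CPM (TMM scaled, vertical axes start at 0) of the 10 genes against passage number, ESC in grey and NrESC in orange; points are libraries and lines join the means of 2 libraries. Krt8 was higher and Cdx2, Eomes and Gata3 lower in NrESC at all 8 passages, Gata2 and Hand1 peaked in NrESC at passage 8 (35.6 and 1.27 CPM), and the Krt18 lines crossed more than once.

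Cdx2, the homeobox gene that specifies trophectoderm, was a low transcript in both arms and lower in NrESC. From passage 0 to passage 14, replicate 1 with replicate 2, its ESC libraries read 1.97 with 2.72, 2.76 with 3.80, 0.787 with 0.772, 1.86 with 1.94, 0.782 with 0.899, 2.54 with 2.37, 1.47 with 1.66 and 1.49 with 1.57 CPM. In the same order the NrESC libraries read 1.72 with 1.38, 1.56 with 1.73, 0.437 with 0.279, 0.529 with 0.659, 0.515 with 0.315, 0.404 with 0.611, 0.501 with 0.568 and 0.544 with 0.517 CPM. At each of the 8 passages both NrESC libraries were below both ESC libraries. The mean over passages was 1.84 ± 0.846 CPM in ESC and 0.767 ± 0.519 in NrESC (SD, n = 8 passage means), 2.56-fold lower (log2 difference -1.36, SE 0.097, adjusted p = 2.14e-16, edgeR's quasi-likelihood test). Single passages ran from -0.60 (SE 0.21) at passage 0 to -2.29 (SE 0.26) at passage 10, all 8 called. At passage 0, with 51 to 76 counts per library, the adjusted p of 0.0257 in edgeR became 0.294 without ESC replicate 2, 0.259 without NrESC replicate 2 and 0.0921 in DESeq2. At passage 4 the call was lost without NrESC replicate 2 (adjusted p = 0.141), and at passage 8 without replicate 2 of ESC (0.0512) or of NrESC (0.0969), edgeR's test in each case.

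Eomes encodes a T-box factor of trophoblast, mesoderm and endoderm. It was the more abundant of the pair, at 15.5 TPM against 1.59 in ESC, and differed less between the arms. Paired libraries from passage 0 to passage 14 read 37.9 with 34.8, 43.5 with 43.5, 26.3 with 26.1, 32.02 with 32.2, 21.9 with 23.00, 42.5 with 40.6, 30.2 with 29.3 and 29.6 with 27.97 CPM in ESC. In NrESC they read 30.7 with 29.02, 29.02 with 29.9, 20.6 with 22.2, 28.3 with 29.6, 9.97 with 9.54, 29.4 with 32.7, 22.6 with 23.02 and 25.96 with 25.1 CPM. Here too both NrESC libraries were below both ESC libraries at 8 of 8 passages. The mean went from 32.6 ± 7.38 to 24.9 ± 7.03 CPM (SD, n = 8 passage means), 1.35-fold lower (log2 difference -0.44, SE 0.020, adjusted p = 7.07e-23 in edgeR's test). The difference was -1.21 (SE 0.068) at passage 8, where the NrESC libraries read 9.97 with 9.54, against -0.56 to -0.15 at the other passages. Those at passages 6 and 14 were -0.15 and -0.18, and their calls did not hold without single libraries: adjusted p was 0.0953 without ESC replicate 2 and 0.165 without NrESC replicate 1 at passage 6, and 0.176 without ESC replicate 1 and 0.0928 without NrESC replicate 2 at passage 14.

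Elf5, the ETS factor gene that marks committed trophoblast, had 0 to 12 counts per library, so it did not pass the filter and its difference was not tested. It was at 0 in 2 libraries, 1 each of ESC at passages 6 and 8, where a count of 0 allows up to 3 counts, or 0.110 and 0.0793 CPM (counting error only). Library values ranged from 0 to 0.175 CPM in ESC with a median of 0.102, and from 0.0322 to 0.282 CPM in NrESC with a median of 0.105. The highest 2 values, 0.259 and 0.282 CPM, were the NrESC libraries of passage 14, where the ESC libraries read 0.0996 and 0.0393 CPM. The highest value equals the filter level to 3 digits, and no library exceeded it.

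Tead4, the DNA-binding partner of YAP1 that acts upstream of Cdx2 in the embryo, went the other way from Cdx2. Its ESC means in passage order were 80.1, 60.02, 56.7, 57.3, 63.2, 63.4, 60.2 and 63.00 CPM. NrESC means were 92.2, 80.5, 80.1, 75.2, 66.6, 77.4, 72.1 and 76.1 CPM. Both NrESC libraries exceeded both ESC libraries at all 8 passages, and the mean rose from 62.97 ± 7.37 to 77.5 ± 7.44 CPM (SD, n = 8 passage means; 1.23-fold; log2 difference 0.30, SE 0.015, adjusted p = 4.88e-22 in edgeR's test). At single passages the difference was 0.20 to 0.50, except 0.08 (SE 0.042) at passage 8, which missed the threshold with an edgeR adjusted p of 0.102.

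Of 17 tested genes of the Hippo pathway and its nuclear effectors, 5 rose, 11 fell and 1 was not called, beside 39.1% and 39.8% of all tested genes, with a median of -0.07 against -0.001 for all genes. Among the 5 that rose were Wwtr1 (0.16, SE 0.015), Tead2 (0.13, SE 0.013) and Tead3 (0.23, SE 0.051). Yap1 itself fell by 0.19 (SE 0.011), as did the upstream kinase gene Stk4 (SE 0.012), and the kinase gene Lats1 fell by 0.28 (SE 0.021). With the 2 libraries of a group summed and passages used as replicates, 3 were higher and 6 lower, where 28.3% of all genes were higher and 27.2% lower. Among 9 tested genes known as targets of TEAD with YAP, 2 rose and 7 fell (median -0.28, against the same shares of all genes). Those that fell included Ptpn14 at -0.50 (SE 0.019), Ctgf at -0.73 (SE 0.032) and Nt5e at -0.44 (SE 0.033). Nt5e was at -1.99 (SE 0.13) at passage 8. The 2 that rose were F3 at 0.47 (SE 0.059) and Axl at 0.32 (SE 0.050). When passages served as replicates, 2 targets rose and 4 fell.

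Gata3, a zinc-finger factor gene active beside Cdx2, showed the lowest ratio of NrESC to ESC in the set. In passage order, its ESC libraries read 0.752 with 0.689, 0.419 with 0.986, 1.01 with 1.09, 2.78 with 3.69, 1.86 with 1.82, 3.68 with 3.62, 2.70 with 2.42 and 2.16 with 2.24 CPM. In NrESC they read 0.540 with 0.547, 0.345 with 0.173, 0.516 with 0.307, 0.705 with 0.791, 0.515 with 0.604, 0.538 with 0.932, 0.316 with 0.470 and 0.440 with 0.611 CPM. NrESC stayed under 1 CPM throughout, while ESC was at 0.721 CPM at passage 0 and 3.65 at passage 10. The ranges did not overlap at any of the 8 passages. The mean was 1.99 ± 1.12 CPM in ESC and 0.522 ± 0.168 in NrESC (SD, n = 8 passage means), 3.37-fold lower (log2 difference -1.75, SE 0.11, adjusted p = 3.58e-18 in edgeR's test). Passage 0 was not called (-0.41, SE 0.35, adjusted p = 0.395), whereas passage 12 reached -2.65 (SE 0.28). The call at passage 2 (-1.33) was lost without ESC replicate 2 (-0.60, adjusted p = 0.362) or NrESC replicate 2 (0.0659), and that at passage 4 without NrESC replicate 2 (0.0635), all in edgeR's test.

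Gata2, its paralog, was lower in NrESC at 7 passages and higher at passage 8. From passage 0 on, the ESC libraries read 9.64 with 7.98, 7.68 with 7.02, 8.32 with 10.2, 12.2 with 13.9, 10.3 with 11.1, 15.5 with 15.6, 13.6 with 11.96 and 13.1 with 12.6 CPM. The NrESC libraries read 5.13 with 5.19, 4.03 with 4.15, 4.33 with 3.26, 5.16 with 4.55, 36.04 with 35.2, 5.22 with 5.98, 6.72 with 6.56 and 6.14 with 5.59 CPM. At passage 8 both NrESC libraries were above every other library of the series. Elsewhere both lay below both ESC libraries. The difference was 1.73 (SE 0.087, 3.31-fold) at passage 8 and -1.48 to -0.79 at the others. Averaged over passages Gata2 fell by 0.78 (SE 0.039, adjusted p = 1.85e-21 in edgeR's test), and without passage 8 by 1.13, with NrESC means then at 5.14 ± 1.00 CPM against 11.4 ± 2.94 in ESC (SD, n = 7 passage means).

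Tfap2c encodes AP-2 gamma, a factor of trophectoderm and germ cells that embryonic stem cells also express. In passage order ESC means were 31.98, 30.6, 49.95, 41.2, 47.9, 37.3, 45.99 and 43.3 CPM. Those of NrESC were 37.4, 34.4, 42.1, 43.5, 68.8, 42.5, 52.1 and 47.4 CPM. Both NrESC libraries were above both ESC libraries at 7 passages and below them at passage 4. The mean rose by 0.16 (SE 0.016, adjusted p = 4.49e-12 in edgeR's test; 1.12-fold), with 0.52 at passage 8, -0.25 at passage 4 and no call at passage 6 (0.08, adjusted p = 0.125). At passage 14 (0.14) the call was lost without ESC replicate 1 (0.06, adjusted p = 0.435) or NrESC replicate 2 (0.159) in the same test.

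Hand1, a basic helix-loop-helix gene of trophoblast giant cells and of mesoderm, had 1 to 50 counts per library. It passed the filter through ESC at passages 10, 12 and 14 and NrESC at passages 4, 8, 12 and 14, so through both arms. Over the 8 passages the ESC libraries were at 0.156 with 0.145, 0.168 with 0.0290, 0.220 with 0.400, 0.329 with 0.243, 0.130 with 0.449, 0.370 with 0.347, 0.526 with 0.638 and 0.963 with 0.866 CPM. The NrESC libraries were at 0.202 with 0.153, 0.230 with 0.415, 0.437 with 0.362, 0.0756 with 0.0989, 1.36 with 1.18, 0.269 with 0.386, 0.448 with 0.509 and 0.440 with 0.329 CPM. NrESC at passage 8 was the highest group and ESC at passage 14 came next. Over the 8 passages the difference was 0.10 (SE 0.19, adjusted p = 0.629 in edgeR's test), and its sign turned without passage 8 (-0.17). It was higher at passage 8 (2.05, SE 0.37, adjusted p = 6.55e-06), and at 3.25 without ESC replicate 2. Calls at passages 2 (1.59), 6 (-1.65) and 14 (-1.25) each depended on single libraries. At passage 2 the difference was 3.25 without ESC replicate 1, and adjusted p was 0.323 without ESC replicate 2 and 0.211 without NrESC replicate 2, at passage 6 it was 0.0603 to 0.178 without any 1 of the 4 libraries, and at passage 14 it was 0.0676 without ESC replicate 1 and 0.0778 without NrESC replicate 2. DESeq2 gave 0.0576 at passage 2 and 0.0625 at passage 6.

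**Figure D2:**
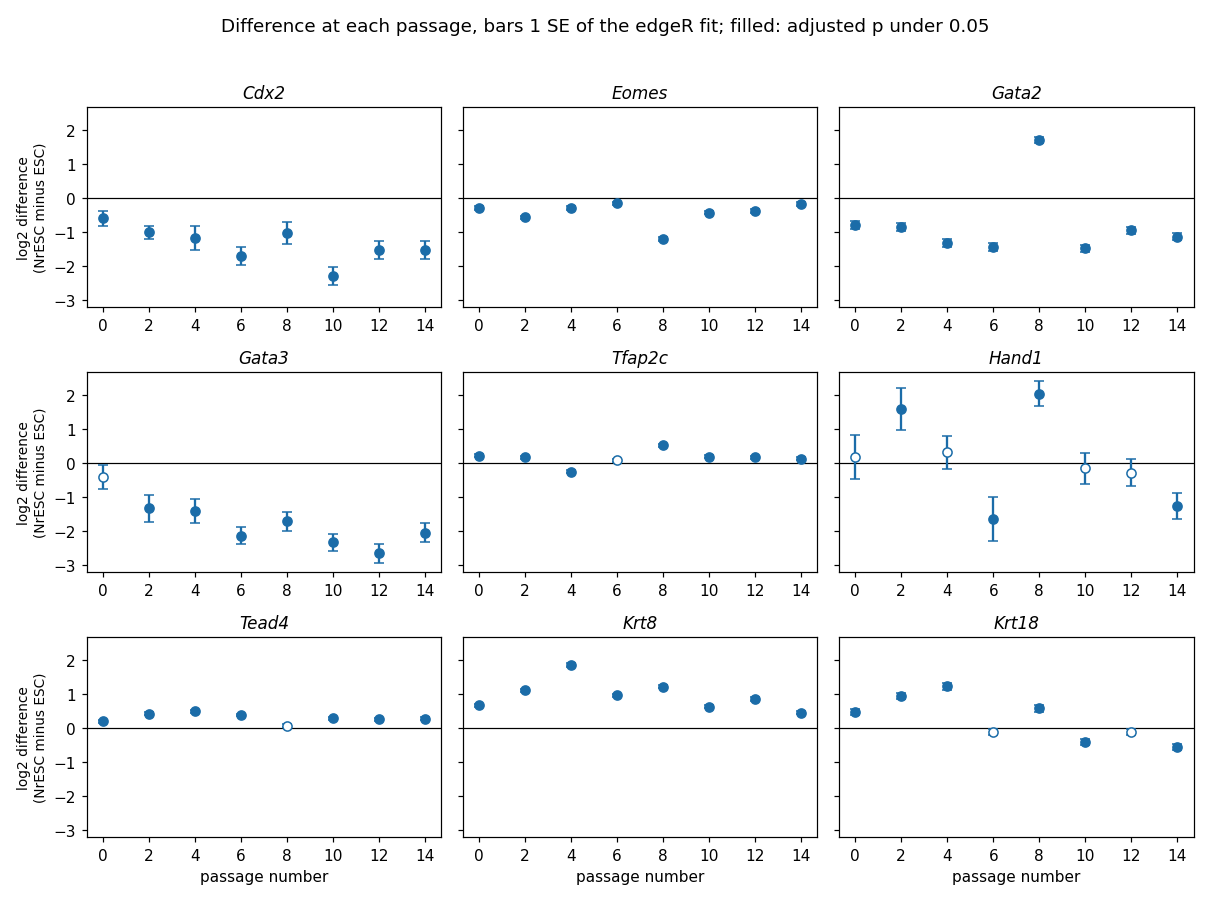
Log2 difference (NrESC minus ESC, vertical axis) of the 9 tested genes at each passage (horizontal axis), points being the edgeR estimate and bars 1 SE, filled where the adjusted p was under 0.05. Krt8 and Tead4 lay above 0 and Cdx2, Eomes and Gata3 below 0 at every passage, Gata2 was above 0 at passage 8 only (1.73), and Krt18 went from 1.24 at passage 4 to -0.55 at passage 14.

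Krt8, the type II keratin gene of simple epithelia, had the largest rise of the set in the mean over the 8 passages, while at passage 8 Hand1 (2.05) and Gata2 (1.73) exceeded it. ESC libraries, again from passage 0 to 14, read 51.1 with 53.4, 45.9 with 43.2, 29.4 with 25.97, 32.4 with 33.3, 21.6 with 22.7, 35.3 with 36.1, 28.6 with 29.8 and 41.9 with 42.5 CPM. NrESC libraries read 85.4 with 81.3, 93.5 with 101, 97.8 with 103, 63.3 with 65.4, 52.6 with 51.03, 55.6 with 55.1, 53.7 with 52.7 and 58.2 with 57.6 CPM. The ESC libraries reached 53.4 CPM at most and the NrESC libraries 51.0 CPM at least, so the arms overlapped only where ESC at passage 0 (51.1 and 53.4) met NrESC at passages 8 (52.6 and 51.0) and 12 (53.7 and 52.7). Within each of the 8 passages both NrESC libraries were above both ESC libraries. The mean rose from 35.8 ± 9.93 to 70.5 ± 20.2 CPM (SD, n = 8 passage means), 1.97-fold (log2 difference 0.98, SE 0.017, adjusted p = 4.27e-38 in edgeR's test). By passage the difference was 0.67, 1.12, 1.86, 0.97, 1.22, 0.63, 0.86 and 0.46 from passage 0 to 14 (SE 0.044 to 0.053), all 8 called.

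Krt18, the type I partner, was higher in NrESC early and lower late. The ESC libraries were at 9.77 with 7.98, 7.76 with 8.06, 6.58 with 6.38, 9.47 with 11.2, 8.05 with 8.01, 13.7 with 11.7, 10.7 with 10.5 and 14.4 with 16.4 CPM in passage order. Those of NrESC were at 13.03 with 12.1, 15.4 with 15.2, 14.9 with 15.6, 9.97 with 9.46, 12.3 with 11.8, 9.63 with 9.74, 10.1 with 9.60 and 10.5 with 10.4 CPM. Both NrESC libraries were above both ESC libraries at passages 0, 2, 4 and 8, and below them at 3 of the other 4. The called differences were 0.48, 0.95, 1.24 and 0.59 at passages 0, 2, 4 and 8 and -0.40 and -0.55 at passages 10 and 14 (SE 0.089 to 0.098), and both passages 6 and 12 gave -0.10, not called (adjusted p = 0.374 and 0.373). The mean rose from 10.04 ± 2.90 to 11.9 ± 2.36 CPM (log2 difference 0.26, SE 0.033, adjusted p = 2.41e-09 in edgeR's test). It was 0.11 without passages 0 and 2, and with passages as replicates it was not called (0.25, adjusted p = 0.255).

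The balance between the 2 keratin transcripts was read from the TPM of Krt8 divided by that of Krt18 in each library. Group values are geometric means of the 2 libraries. In ESC the ratio was 4.38, 4.17, 3.16, 2.36, 2.04, 2.09, 2.05 and 2.03 from passage 0 to 14. In NrESC it was 4.92, 4.72, 4.88, 4.91, 3.19, 4.24, 4.01 and 4.10. ESC lay between 2.03 and 2.09 from passage 8 on, while NrESC stayed at 4.01 or above except at passage 8. At passage 0 the libraries overlapped, with 3.87 and 4.96 in ESC and 4.86 and 4.98 in NrESC, and at the other 7 passages both NrESC libraries were above both ESC libraries. The group value of the ratio was higher in NrESC at 8 of 8 passages, by 0.71 ± 0.371 on the log2 scale (SD, n = 8 passages; exact two-sided sign-flip permutation test, p = 0.00781, the smallest that 8 passages allow). Without passage 8 the difference was 0.72 (exact p = 0.0156). Passages are successive samples of 1 line and not independent cultures.

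**Figure D3:**
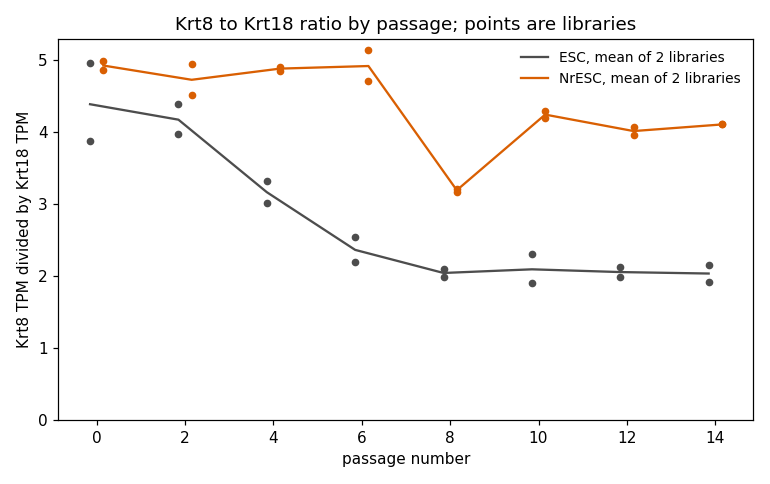
Krt8 TPM divided by Krt18 TPM (vertical axis, from 0) against passage number for ESC (grey) and NrESC (orange), points being libraries and lines joining geometric means of 2 libraries. ESC ran from 4.38 at passage 0 to 2.03 at passage 14, and NrESC lay between 3.19 and 4.92.

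Pairs of genes had nearly the same order of passages in ESC. Ranked from the lowest group mean, Eomes ran through passages 8, 4, 14, 12, 6, 0, 10 and 2, and Cdx2 through 4, 8, 14, 12, 6, 0, 10 and 2, differing only in which of passages 4 and 8 was lower. Gata2 ran through 2, 0, 4, 8, 12, 14, 6 and 10, and Gata3 through 2, 0, 4, 8, 14, 12, 6 and 10. Tfap2c began with 2, 0, 10 and 6 and ended with 14, 12, 8 and 4. In ESC the means of Cdx2 at passages 4, 8 and 12 (0.780 to 1.57 CPM) were all below those at passages 6 and 10 (1.90 and 2.46 CPM). The same held for Eomes (22.5 to 29.8 below 32.1 and 41.6), Gata2 (9.25 to 12.8 below 13.1 and 15.6), Gata3 (1.05 to 2.56 below 3.23 and 3.65) and Krt8 (22.1 to 29.2 below 32.8 and 35.7). Tfap2c was the reverse, with 45.99 to 49.95 CPM at passages 4, 8 and 12 and 37.3 and 41.2 at passages 6 and 10. In NrESC the order of Eomes ended with 6, 2, 0 and 10 and that of Cdx2 with 12, 6, 0 and 2. Gata2 there ended with 10, 14, 12 and 8, and Gata3 with 0, 8, 10 and 6. Passages 4, 8 and 12 were below 6 and 10 in NrESC for Eomes (9.76 to 22.8 below 28.9 and 31.02 CPM). This also held for Gata3 (0.393 to 0.560 below 0.735 and 0.748 CPM). It did not hold in NrESC for Cdx2, Gata2 or Krt8, nor did the reverse for Tfap2c. All genes of a group are read from the same 2 libraries, and no test of these orders is given.

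**Figure D4:**
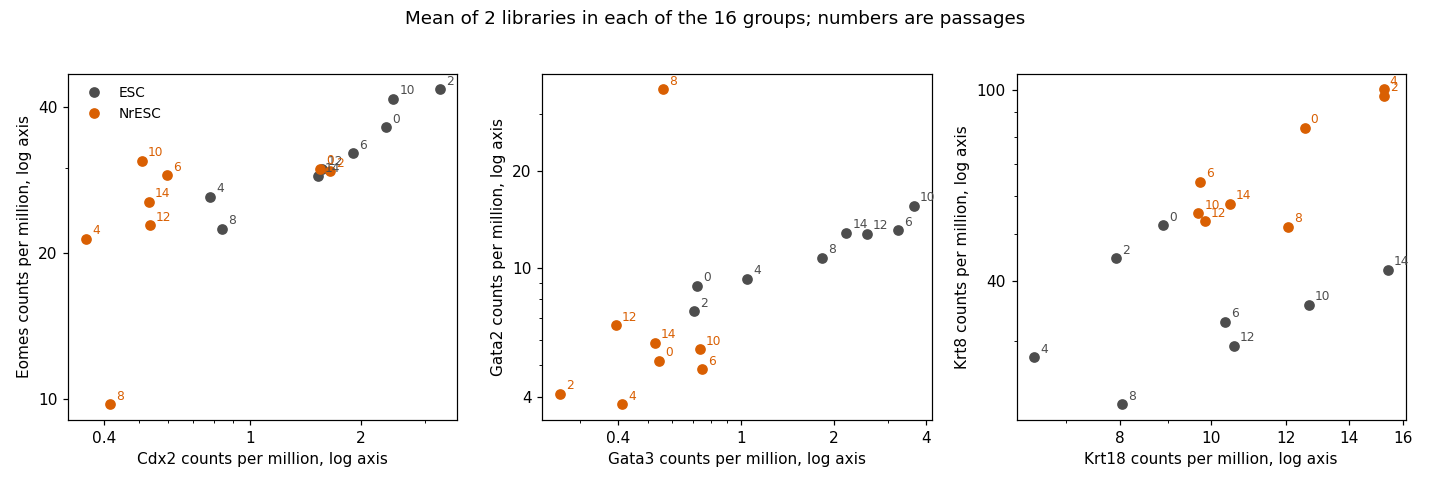
Group means in CPM (log axes; numbers are passages) of Eomes against Cdx2, Gata2 against Gata3 and Krt8 against Krt18, ESC in grey and NrESC in orange. The ESC points of the first and second panels run from lower left to upper right, NrESC at passage 8 lies apart for Gata2 (35.6 CPM) and Eomes (9.76 CPM), and in the third panel the NrESC points lie above the ESC points of similar Krt18 level.

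By passage, from 0 to 14, 7, 9, 8, 7, 8, 8, 7 and 9 of the 9 tested genes were called. Of all tested genes 32.4%, 48.5%, 54.3%, 48.7%, 69.8%, 55.5%, 47.1% and 41.0% were called, in the same order. The difference varied among passages for 9 of 9 genes, where 69.4% of all genes were called. Passage 8 was set against the other 7 because earlier results of these data showed its NrESC libraries apart. The contrast was thus picked from these data, and its calls are given as a description. Passage 8 differed from the mean of the other 7 for 7 of 9 genes (54.0% of all genes). Relative to the other passages, the difference at passage 8 was higher for Gata2 by 2.86 (SE 0.097), Hand1 by 2.22 (SE 0.43), Tfap2c by 0.42, Krt18 by 0.37 and Krt8 by 0.28. It was lower for Eomes (-0.88, SE 0.072) and Tead4 (-0.26). For Cdx2 (0.38, SE 0.35, adjusted p = 0.38 in edgeR's test) and Gata3 (0.05, SE 0.32, adjusted p = 0.91) no such difference was called.

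Markers of other cell types in which Gata2, Hand1, Eomes or keratins can be expressed were summed beside these values. The 11 primitive endoderm markers summed to 50.1 TPM in NrESC at passage 8, against 30.4 to 44.1 in the other NrESC groups and 33.6 to 58.1 in ESC. Of these, 6 were highest in NrESC at passage 8, Gata4 among them at 7.47 TPM and Gata6 at 1.16 TPM, and 5 (Sox17, Sox7, Foxa2, Pdgfra and Cubn) stayed under 1 TPM in every group. The 12 mesoderm markers summed to 17.1 TPM there, against 9.41 to 16.8 and 11.2 to 15.5. Of them, 6 were highest there: Mesp2 (3.885 TPM), Fgf8 (2.065), Foxf1 (0.75), Wnt3 (0.505), Mesp1 (0.47) and Lhx1 (0.045). Evx1 was at 0 and T at 0.420 TPM, and the lowest ESC group of T was at 0.395 TPM. The 7 epidermal markers summed to 37.9 TPM, against 32.5 to 38.1 and 32.6 to 44.2, with Trp63, Krt5, Krt14, Krt15 and Ovol1 under 1 TPM in every group. The 9 fibroblast markers summed to 127 TPM, against 147 to 203 and 224 to 273, mostly Vim at 104 TPM, with Col3a1 and Acta2 at 0. Of the 9, 3 were highest in NrESC at passage 8, namely Col1a1 (1.51 TPM), Thy1 (8.87 TPM) and Pdgfrb (10.6 TPM). The 6 stem cell markers summed to 3879 TPM, against 4241 to 5135 and 4451 to 5412. Of the 7 epidermal markers 0 were highest in NrESC at passage 8, and of the 6 stem cell markers 1 was. The share of all genes that were highest in that group was not counted. No result about these cell types is therefore read from the counts of markers highest there. The part of other cells in the passage 8 values was not tested.

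Trends over passage number were read as the slope of the log2 group means. In the fit to libraries 9 of 9 slopes in ESC were called (55.4% of all genes), 8 of 9 in NrESC (59.9%), and 4 of 9 differed between the arms (25.4%). Hand1 (0.19 per passage, SE 0.028) and Gata3 (0.15, SE 0.015) had the steepest ESC slopes. The NrESC slope was lower than the ESC slope for Gata3 by 0.12 (SE 0.026), for Krt18 by 0.10 (SE 0.0071), for Cdx2 by 0.07 (SE 0.020) and for Krt8 by 0.04 (SE 0.0037). When the 2 libraries of a group were summed and passages served as replicates, 0 of 9 slopes were called in ESC (0.479% of all genes), 0 in NrESC (2.40%) and 0 for the difference (0.0133%), although at unadjusted p under 0.05 the ESC slopes of Gata3, Hand1 and Krt18, the NrESC slopes of Cdx2, Krt8 and Krt18 and the slope difference of Krt18 passed. In that model the mean difference was called for 7 of 9 genes (55.5% of all genes), Hand1 and Krt18 being the exceptions, with Gata2 (adjusted p = 0.0333) and Tfap2c (0.0474) close to the threshold in edgeR's test.

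Of 21 other tested genes of the trophectoderm and trophoblast, 4 rose, 13 fell and 4 were not called (median -0.24), beside 39.1% higher and 39.8% lower among all tested genes. With passages as replicates 3 rose and 9 fell (28.3% and 27.2% of all genes). Gcm1 is among the 13 and passed the filter through ESC alone, where it was higher. Aqp3, a water channel gene of the blastocyst, was at 214 ± 41.7 CPM over the ESC passages and 121 ± 25.9 over those of NrESC, a difference of -0.82 (SE 0.010). Atp1b1, the sodium pump subunit gene needed for cavity formation, rose by 0.44 (SE 0.0092), and the imprinted placental gene Peg10 fell by 0.28 (SE 0.0090). Genes of inner cell mass factors fell in 3 of 4 cases (median -0.35), Nanog by 0.45, Sall4 by 0.37 and Sox2 by 0.32, whereas Pou5f1 rose by 0.15 (SE 0.0089).

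Genes of keratin linkers, desmosomes and epithelial junctions mostly rose, as Krt8 did. Of 21 tested, 17 rose, 2 fell and 2 were not called (median 0.36), where 39.1% of all tested genes were higher and 39.8% lower, and 16 rose and 1 fell with passages as replicates. Eppk1, which encodes the keratin-binding protein epiplakin, was at 5.35 ± 1.45 CPM over the ESC passages and 15.4 ± 3.86 over those of NrESC (log2 difference 1.53, SE 0.032). The filament linker gene Plec rose by 0.67 (SE 0.014) and the tight junction gene Cldn4 by 0.52 (SE 0.015). Among the other keratin genes 3 of 8 rose and 2 fell (median 0.15), near the shares of all genes, and 2 rose and 1 fell with passages as replicates. Of these 5 called genes, Krt80, Krt20 and Krt14 passed the filter only through the arm in which they were higher, so their calls are given without reading a direction from them. Krt17 was at 4.45 ± 1.27 CPM over the ESC passages and 9.93 ± 2.15 over those of NrESC (log2 difference 1.19, SE 0.041). Krt80 had 28 counts summed over ESC and 203 over NrESC, with 1 ESC group at 0, and passed through NrESC alone. Krt20 had 126 counts in ESC and 50 in NrESC and passed through ESC alone. Krt19, the further simple-epithelial keratin gene, was at 6.72 ± 3.64 CPM over the ESC passages and 6.49 ± 2.73 over those of NrESC and was not called (0.03, SE 0.039, adjusted p = 0.462).

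The lists for other cell types are again set beside 39.1% of all tested genes higher and 39.8% lower. In them 1 of 10 tested primitive endoderm markers rose, Gata4 by 0.34 (SE 0.037), and 4 fell (median -0.16). Among those that fell were Lama1 at -0.26 (SE 0.011), Dab2 at -0.65 (SE 0.045) and Col4a1 at -0.54 (SE 0.018). The other 5, Gata6, Sox17, Sox7, Pdgfra and Amn, were not called. Without passage 8, 1 rose and 6 fell. Cubn is among the 4 and passed the filter through ESC alone. Of 10 mesoderm markers 2 rose and 6 fell (median -0.27), with Kdr at -0.39 (SE 0.051), Mixl1 at -0.71 (SE 0.11) and Evx1 at 257 counts in ESC against 25 in NrESC, and 1 and 3 with passages as replicates. Evx1, too, passed through ESC alone, which leaves 5 that fell and passed through both arms. Of 5 epidermal markers 0 rose and 3 fell (median -0.45), namely Perp at -0.45 (SE 0.031), Trp63 at 170 counts in ESC against 111 in NrESC and Krt14 at 72 against 54. Trp63 and Krt14 passed the filter through ESC alone, so Perp is the 1 called gene that passed through both arms. Ovol1, not called, also passed through ESC alone. The median is thus taken over 5 genes of which 3 passed through ESC alone, and no direction is read from it. Grhl3, the remaining gene, passed through both arms and was not called (-0.005). Of 6 fibroblast markers 3 rose and 2 fell (median -0.04), with Vim at -0.49 (SE 0.0099), Pdgfrb at 0.31 (SE 0.024) and Fbn1 at -0.40 (SE 0.036).

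**Figure D5:**
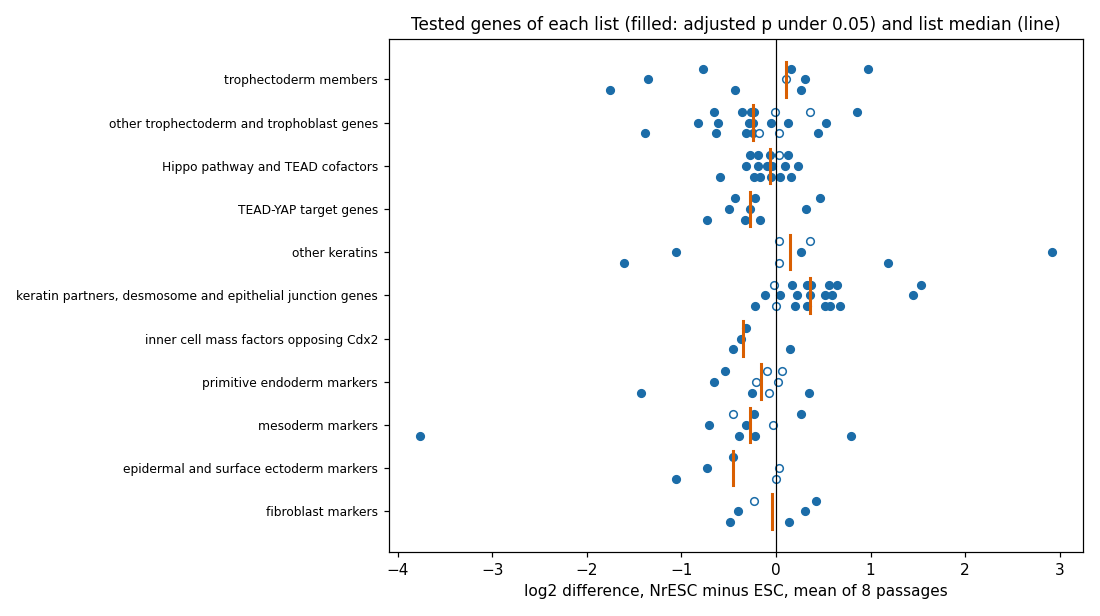
Log2 difference of NrESC minus ESC averaged over 8 passages (horizontal axis) for the tested genes of each list (rows), filled where the adjusted p was under 0.05; orange lines are list medians. The keratin linkers and junction genes have a median of 0.36 and the other trophectoderm genes one of -0.24; the values of Krt80, Krt14 and Evx1, which have groups at 0, depend on the prior count of the fit.

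For 6 members above 2 CPM on average, the genes whose group means followed them most closely were sought by Pearson correlation of log2 CPM over the 16 groups, as a description. Eomes was followed by Rac1 (r = 0.978), Slc35a4 (0.975) and Dhx38 (0.970), and Tfap2c by Wwp1 (0.956), Dgkh (0.939) and Prkcb (0.938). Tead4 was nearest to Poll (0.964), Med24 (0.960) and Afg3l1 (0.949), and Krt8 to Il2rg (0.952), Elmo3 (0.944) and Ruvbl2 (0.944). Gata2 was nearest to Npr1 (0.922), Zfp800 (0.917) and Sec11c (0.912), and NrESC at passage 8 is the far point of that pattern. Krt18 had no gene as close, and its first alone is given, Cited4 (0.747). The points share libraries and arms, and the genes named had the highest correlations among tested genes above the same level. Genes with placeholder symbols (such as Gm or Rik names) were passed over, for Krt18 too.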

How the data were processed

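Gene-level values of 32 mRNA libraries were deposited by the authors as 2 tables, of expected counts and of TPM, in columns whose headers end as RSEM output does. Per the submitters' processing notes, which give no roles, STAR, RSEM, HTSeq 0.12.4, Cufflinks 2.2.1, DESeq2, edgeR and the build mm9 are named. Expected counts (0.837% of them not whole) were rounded. Libraries held 24989651 to 50463483 counts. Their number, 2 per group, limits the precision, and so does depth for Cdx2, Gata3, Hand1 and Elf5. TPM were used as deposited, to compare genes and for the keratin ratio.

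edgeR 4.0.16 (R 4.3.3) kept 15036 of 24890 genes (filterByExpr, at least 10 counts scaled, in any 2 libraries, so a gene may pass through 1 arm), scaled by TMM, and fitted 16 group means with 16 residual degrees of freedom. Contrasts were the mean over 8 passages, each passage, their variation, passage 8 against the other 7, and slopes. Called means an adjusted p under 0.05 (Benjamini-Hochberg). SD values of arm levels are over passage means. Counting limits cover counting error only. The fit was tested on simulated data.

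The genes and gene lists were chosen with earlier results of these data known, and some lists share genes (Krt7, Krt14 and Krt19). Named from each list were the 3 called genes with the smallest p. The other list genes named, such as Krt19, Gata4, Gata6, T, Wwtr1, Tead2, Tead3, F3 and Axl, were added after their values were seen. Alternatives were DESeq2 1.42.0, limma 3.58.1, other scaling and filters, a replicate block, passages as replicates (libraries summed), and leaving out libraries or passages. At each passage, ESC and NrESC libraries with the same replicate number did not deviate together (r -0.183 to 0.0388), and the main fit used no pairing. Whether a number follows 1 culture over passages was not checked, so pairing of that kind is not known. Replicates of each group differed by more than sampling noise. Genes near Krt18 in pattern beyond the first are not reported here.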

Additional observations from a re-analysis of the deposited data

Results flagged for a closer look

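The difference between NrESC and ESC was not the same at all passages for any of the 9 tested genes, by edgeR's quasi-likelihood test of the variation of the difference over 8 passages. The adjusted p was 1.93e-23 for Gata2, whose difference was 1.73 at passage 8 and -1.48 to -0.79 at the other passages, and 2.29e-05 for Hand1 (2.05 at passage 8 and -1.65 at passage 6). It was 6.26e-20 for Krt8 (0.46 to 1.86) and 4.39e-16 for Krt18 (-0.55 to 1.24). For Eomes it was 2.56e-12 (-1.21 to -0.15), for Tfap2c 1.47e-11 (-0.25 to 0.52) and for Tead4 1.24e-06 (0.08 to 0.50). For Cdx2 (-2.29 to -0.60) it was 0.00195, and for Gata3 (-2.65 to -0.41) 0.0018. In the same test 69.4% of all tested genes were called, and the spread it uses is that between the 2 libraries of a group.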

How the results depend on the processing

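The counts of 4 members higher and 4 lower were the same under every alternative run except passages as replicates, with 3 and 4. With passages as replicates the 9, 8 and 4 called slopes (ESC, NrESC and their difference) became 0, 0 and 0, and Krt18 lost its call in the mean. The sign of Hand1 in the mean turned without passage 8 (-0.17) and without passages 0 and 2 (-0.16). Leaving out 1 library turned 3 uncalled values: Hand1 at passage 4 ranged from -0.023 to 0.83 and at passage 10 from -0.41 to 0.10, and Krt18 at passage 6 from -0.20 to 0.041. Leaving out single libraries gave 5 to 6 called members at passage 6 and 6 to 9 at passage 14, and the lost calls stand beside each gene. A replicate block left 11842 genes called in the mean against 11868 and changed no member's call. The cause of these shifts was not tested. Depth limits Cdx2, Gata3 and Hand1, for which 1 to 167 counts stand behind a library's value, and Elf5, which could not be tested.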
